A study of Rattus norvegicus with 12 samples.

Results

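The genes described here were the 10 CXC and CX3C chemokines named by the array: Cxcl1, Cxcl2, Cxcl9, Cxcl10, Cxcl11, Cxcl12, Cxcl13, Cxcl14, Cx3cl1 and Pf4. They were taken by matching the RefSeq accession of each probe to the gene, which gave 11 probes, 2 of them for Cxcl12, out of 30367 probes and 15154 gene symbols on the array. All 10 passed the filter on dim probes and were among the 20425 features tested. RNA came from the bladder body of 12 male Fischer 344 rats, 1 rat to an array, in 3 groups of 4. Old restricted rats, 25 to 28 months of age, had received food on only 3 days of each week since they were 6 weeks old, which came to about 40% fewer calories than the freely fed rats of that age. Old freely fed rats were also 25 to 28 months old, and young freely fed rats were 6 months old. The rats carried no transgene or other treatment in the labels.

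Chemokines are small secreted proteins that draw leukocytes through seven-pass receptors on the cell surface, and the CXC and CX3C families are named for the spacing of their first cysteines. Cxcl1 and Cxcl2 draw neutrophils through Cxcr2. Cxcl9, Cxcl10 and Cxcl11 are induced by interferons and draw activated T and NK cells through Cxcr3, Cxcl13 draws B cells through Cxcr5, Cxcl12 is a stromal ligand of Cxcr4 and Ackr3, Cx3cl1 is tethered to epithelium and endothelium and binds Cx3cr1, and Pf4 is best known from platelet granules. Cxcl14 is a chemokine of epithelia, and its receptor is less settled.

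A level is the log2 of a probe's processed signal less that of the 75th percentile on its array, so that 0 is the 75th percentile and a step of 1 is a doubling. Tests were limma fits over all features, with Benjamini-Hochberg adjustment and a threshold of 0.05. The 3 comparisons share arrays, so their values for a gene are given side by side and are not independent. In bulk tissue, fewer cells of a type and less RNA per cell cannot be told apart, and this holds for each result below. The arrays of restricted rats lay on 1 slide and those of both freely fed groups on another, read in another scan, so slide and diet cannot be told apart. On the slide of the freely fed rats, old and young animals took separate rows, so row and age cannot be told apart either.

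Uroplakins, keratins and the other urothelial markers were well above background on every array for 11 of 11 genes measured, and at least 5 of 6 smooth muscle markers were too, as the tissue label has it. One marker of a neighbouring gland, the prostatic Andpro, lay at -10.01 to -7.99 in old restricted rats, at -10.34 to -5.78 in old freely fed rats and at -4.77 to -1.59 in young rats, and was well above background on 0, 1 and 4 arrays of these groups. The summed level of the 7 prostate and seminal vesicle genes measured was 0.067 to 0.0903, 0.0474 to 0.0887 and 0.159 to 0.513 times the 75th percentile in the same order. No more than 3 of the 7 were well above background on any array. Of the 3 tested, 2 were called lower by limma in each comparison against young rats. The third was not called and had a positive change between restricted and young rats. The sum thus moved with both comparisons against young rats, and its part in those results was not tested. A pair of old animals stood apart from their groups. Old freely fed replicate 2 lay at 51.9 on the first principal component, against 7.27 to 13.7 for the others of its group, and old restricted replicate 3 lay at 19, against -7.32 to 1.74. Values without 1 or both are given beside the results they move most.

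With restriction, 3 of the 10 chemokines fell and 1 rose against old freely fed rats, beside 3.64% of all features called in either direction (2.02% lower and 1.62% higher). The neutrophil chemokines Cxcl2 and Cxcl1 fell 5.4-fold and 2.47-fold, Pf4 fell 1.8-fold, and Cxcl14 rose 1.35-fold. The median log2 change of the 10 was -1.25, beside 0.02 over all features, and 9 of the 10 had a negative change. Cxcl11, one of the 9, passed the filter on dim probes only through old freely fed rats, so its direction partly follows from that filter. Without old freely fed replicate 2 the median was -0.63, with 8 of the 10 negative. The groups did not overlap for the same 4 genes, beside 14.7% of all features.

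**Figure D1:**
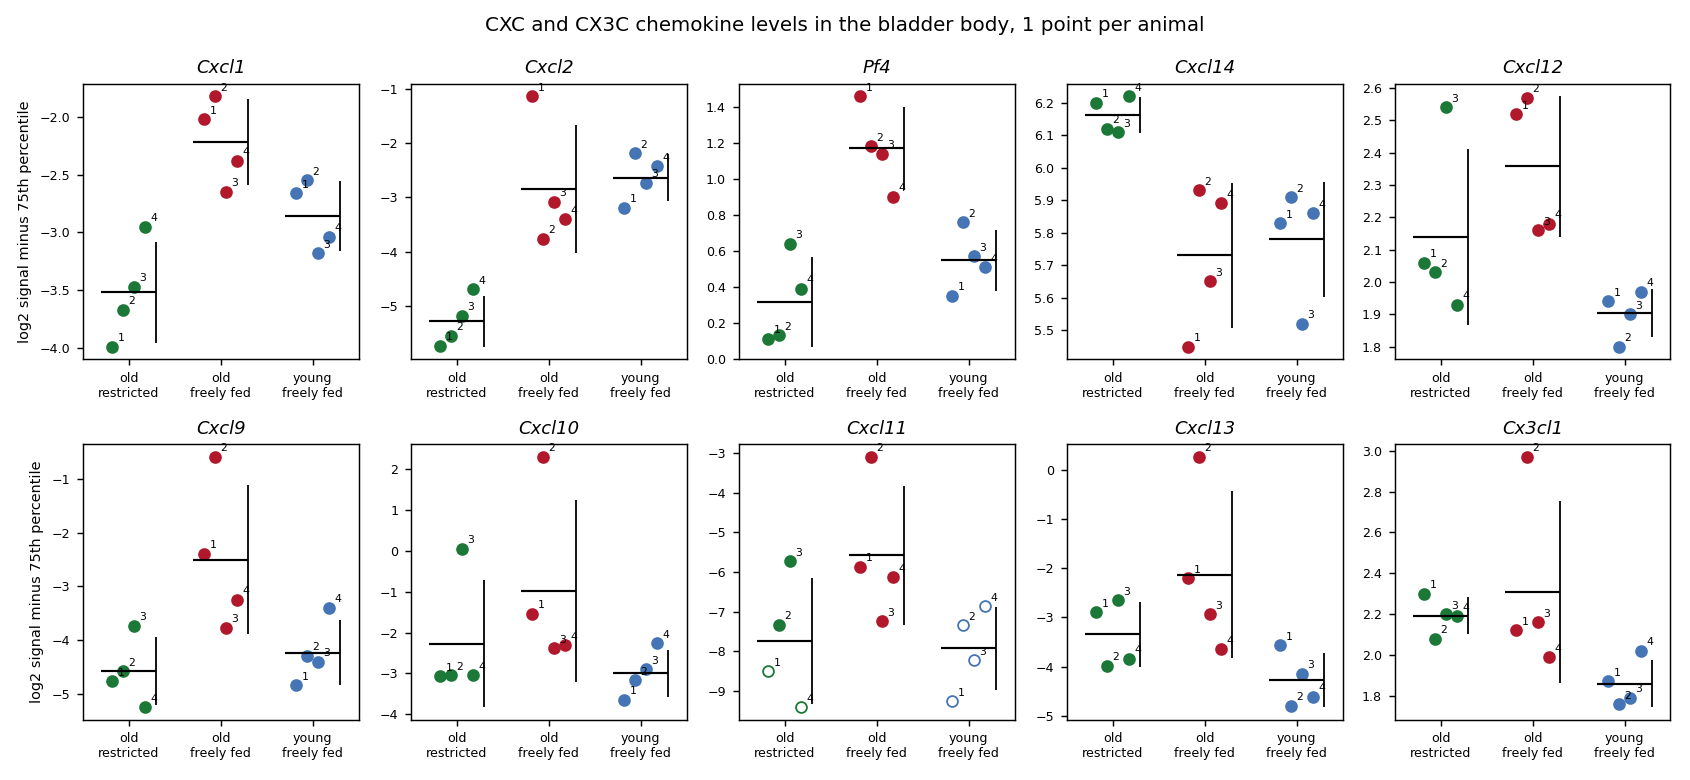
Level of each chemokine (vertical axis, log2 signal above the 75th percentile, scaled separately in each panel) in old restricted, old freely fed and young freely fed rats, 1 numbered point per animal, with the group mean (horizontal line) and SD (vertical line, n = 4). Open points are not well above background. Cxcl2 in restricted rats, at -5.72 to -4.68, lies below all 8 freely fed rats. Cxcl1, Cxcl9, Cxcl10, Cxcl11, Cxcl12, Cxcl13 and Cx3cl1 have their highest point in old freely fed replicate 2.

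Cxcl2, an early neutrophil attractant of macrophages and epithelium, had levels of -5.72, -5.54, -5.17 and -4.68 in old restricted rats, against -1.14, -3.76, -3.08 and -3.40 in old freely fed rats and -3.19, -2.19, -2.73 and -2.43 in young rats. All 4 restricted animals lay below all 8 freely fed ones, and old freely fed replicate 1 stood highest of the 12. The log2 change was -2.43 ± 0.48 (SE) against old freely fed rats (limma adjusted p = 0.0203) and -2.65 ± 0.48 against young rats (limma adjusted p = 0.00929). The first call was lost without restricted replicate 1 (limma adjusted p = 0.0508) or restricted replicate 2 (limma adjusted p = 0.0625), and the second was kept in all 12 fits that left out an animal. Between old and young freely fed rats the log2 change was -0.21, with a 95% interval of -1.25 to 0.83 and an adjusted p of 0.814 by limma. That value turned to 0.10 without old freely fed replicate 2.

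Cxcl1, the close relative of Cxcl2 that shares its receptor, had levels of -3.99, -3.67, -3.47 and -2.95 in old restricted rats, against -2.02, -1.82, -2.65 and -2.38 in old freely fed rats and -2.66, -2.55, -3.18 and -3.04 in young rats. Restricted rats were below all old freely fed rats and overlapped the young ones. The log2 change was -1.30 ± 0.23 (SE) against old freely fed rats (limma adjusted p = 0.0143), and it was called in 12 of 12 fits that left out an animal. With both animals that stand apart left out together it was -1.19 (limma adjusted p = 0.0579). Against young rats the restricted rats differed by -0.66 (limma adjusted p = 0.0969), and old freely fed rats differed from young ones by 0.64 (limma adjusted p = 0.123).

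**Figure D2:**
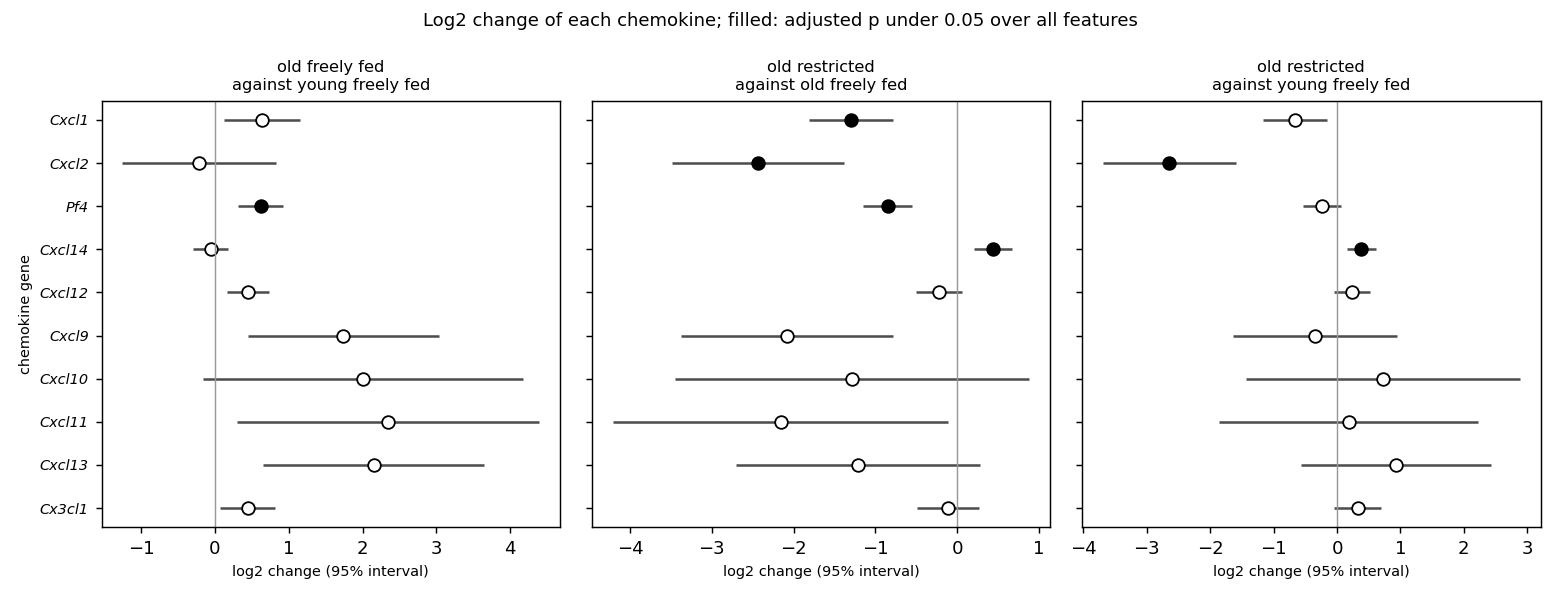
Log2 change of each chemokine (horizontal axis, with the 95% interval from limma) in the 3 comparisons, 1 row per gene; filled points have an adjusted p under 0.05 over all features. Between restricted and freely fed old rats Cxcl1, Cxcl2 and Pf4 are filled on the left of 0 and Cxcl14 on the right, and the intervals of Cxcl10 and Cxcl11 are the widest.

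Sequences before the transcription starts of inducible chemokines are shown because Cxcl1 and Cxcl2, which fell together with restriction, can be read side by side there. They come from RefSeq on assembly GRCr8, 5′ to 3′ on the strand of the gene, and capitals mark the kB letters, GGGA, any 4 bases and CC, on either strand. That pattern is a loose form of the core bound by NF-kB, and its matches need not fit a stricter form. It was present in the 250 bases before the start in 6 of the 9 chemokines with a promoter entry, beside 16.4% of 33469 promoters; no entry was matched for Pf4. Overlapping matches are joined in 1 run of capitals.
Cxcl1, chr14:17479380-17479439, minus strand: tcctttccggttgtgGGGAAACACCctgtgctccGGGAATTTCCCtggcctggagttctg
Cxcl2, chr14:17467304-17467343, minus strand: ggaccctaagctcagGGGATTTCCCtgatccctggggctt
Cxcl9, chr14:16007057-16007096, plus strand: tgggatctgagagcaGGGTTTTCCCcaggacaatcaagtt
Cxcl13, chr14:13917947-13917986, minus strand: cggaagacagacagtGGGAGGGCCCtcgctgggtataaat

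All 4 genes shown lie on chromosome 14, as do Cxcl10 and Cxcl11 below. A match is a description of letters and not of a bound site. Of the 10 NF-kB pathway genes tested, 0 were called by limma between restricted and freely fed old rats and 0 with age, with 2 at an unadjusted p under 0.05 in each. A single one, the kinase gene Ikbkb, fell by 0.16 on the log2 scale between restricted and young rats (limma adjusted p = 0.0438), a call kept in 2 of 12 fits that left out an animal.

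The receptor of Cxcl1 and Cxcl2, Cxcr2, had levels of -7.14, -7.09, -6.87 and -6.99 in old restricted rats, against -5.64, -5.22, -6.11 and -6.58 in old freely fed rats and -6.66, -6.31, -6.68 and -6.96 in young rats. Restricted rats lay below all old freely fed rats, at levels close to background, and 3 of the 4 were well above it. Cxcr2 passed the filter on dim probes only through old freely fed rats, the higher group. It differed by a log2 change of -1.13 ± 0.25 (SE; limma adjusted p = 0.0329, and 0.0415 without that filter). The call was kept in 5 of 12 fits that left out an animal: it was lost without old freely fed replicate 1, 2 or 3 or any of the 4 restricted animals, and also with both animals that stand apart left out (limma adjusted p = 0.0801) or with only the 2 groups in the fit (limma adjusted p = 0.0671). With normexp background correction the change was -0.40, and -0.48 with quantile scaling as well. Another receptor of the family, Cxcr1, was well above background on no array. Of 7 neutrophil markers tested 0 passed the limma test in any comparison (4 had an unadjusted p under 0.05 with restriction, 3 with age and 1 between restricted and young rats), and the summed level of the 9 measured was 0.1 to 0.145 times the 75th percentile in restricted rats, 0.174 to 0.415 in old freely fed rats and 0.135 to 0.237 in young rats. Among the 7 tested, Csf3r and Ngp passed the filter on dim probes only through old freely fed rats. The counts with age and with restriction may partly follow from that filter. With age, 24.6% of all features had an unadjusted p under 0.05. The sums of the restricted and old freely fed rats did not overlap, and their part in the Cxcl1 and Cxcl2 results was not tested.

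Pf4, the platelet factor that binds heparin and is also made by some tissue macrophages, had levels of 0.11, 0.13, 0.64 and 0.39 in old restricted rats, against 1.46, 1.18, 1.14 and 0.90 in old freely fed rats and 0.35, 0.76, 0.57 and 0.51 in young rats. Old freely fed rats stood above all 8 others, and restricted and young rats overlapped. With restriction the log2 change was -0.85 ± 0.14 (SE; limma adjusted p = 0.00982), and it was called in all 24 alternatives tried. With age it was 0.62 ± 0.14 (limma adjusted p = 0.0377), the only chemokine called between old and young freely fed rats, beside 3.72% of all features (1.63% higher and 2.1% lower). That call was kept in 3 of 12 fits that left out an animal, those without old freely fed replicate 4, restricted replicate 1 or restricted replicate 3. Its adjusted p over the alternatives ran from 0.0132 to 0.0888. Restricted rats differed from young ones by -0.23 (limma adjusted p = 0.324).

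Of 6 platelet and megakaryocyte genes tested beside it, 0 passed the limma test in any comparison and 1 had an unadjusted p under 0.05 in each, with a median log2 change of 0.05 with restriction and -0.17 with age. Their summed level over 8 genes was 0.792 to 0.969 in restricted rats, 0.835 to 0.874 in old freely fed rats and 0.844 to 1.13 in young rats. Ppbp, which encodes the other main chemokine of platelet granules, averaged -7.25 ± 0.23, -7.03 ± 0.21 and -7.07 ± 0.12 in the same order (SD, n = 4 each), near the limit of detection. The summed level of 12 macrophage markers was 40.8 to 53.7 in restricted rats, 49.1 to 110 in old freely fed rats (59 at most without replicate 2) and 37.4 to 46.2 in young rats, with 0 of 11 called by limma in any comparison (3 at an unadjusted p under 0.05 with restriction, 4 with age and 1 between restricted and young rats), and its part in the Pf4 result was not tested. Among 10 endothelial markers 2 fell with restriction: Plvap, a protein of vessel wall diaphragms, by 0.39 (limma adjusted p = 0.0238) and the adhesion molecule Pecam1 by 0.36 (limma adjusted p = 0.0472), calls kept in 9 and 2 of 12 fits that left out an animal. Endothelial markers summed to 18.1 to 21.4 in restricted rats, 22.6 to 27.6 in old freely fed rats and 20 to 22.2 in young rats. Plvap, with mean log2 levels of 3.71, 4.1 and 3.82 in the same order, made up most of that sum. The median log2 change of the 10 with restriction was -0.11, and 2 of the 10 had a positive change. The sum moved with the fall of Cxcl1, Cxcl2 and Pf4, and its part in those results was not tested.

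Cxcl14 varied least in restricted rats, with an SD of 0.05, against 0.22 in old freely fed rats and 0.17 in young rats. Its levels were 6.2, 6.12, 6.11 and 6.22 in old restricted rats, against 5.45, 5.93, 5.65 and 5.89 in old freely fed rats and 5.83, 5.91, 5.52 and 5.86 in young rats. All 4 restricted animals lay above all 8 freely fed ones. Cxcl14 differed by a log2 change of 0.43 ± 0.11 (SE; limma adjusted p = 0.0486) against old freely fed rats and 0.38 ± 0.11 (limma adjusted p = 0.0469) against young rats. Both calls lie next to the threshold, and each was kept in 3 of 12 fits that left out an animal: the first without young replicate 3 or old freely fed replicate 2 or 4, the second without old freely fed replicate 1, 2 or 4. Old and young freely fed rats differed by -0.05, with a 95% interval of -0.29 to 0.18.

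Among 11 urothelial markers tested, 0 were called by limma between restricted and freely fed old rats (4 at an unadjusted p under 0.05), with a median log2 change of 0.14, and 2 rose between restricted and young rats. These were Krt5, a basal cell keratin, with a log2 change of 1.01 (limma adjusted p = 0.0032), and Cldn4, a tight junction protein, with a log2 change of 0.25 (limma adjusted p = 0.03); these calls were kept in 12 and 6 of 12 fits that left out an animal. The summed level of the urothelial markers was 302 to 314 in restricted rats, 262 to 295 in old freely fed rats and 293 to 317 in young rats. It moved with Cxcl14 between the old groups, and its part in that result was not tested.

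In restricted rats against young rats, 2 of the 10 chemokines were called, Cxcl2 lower and Cxcl14 higher, beside 9.18% of all features (3.19% higher and 5.99% lower). The median log2 change of the 10 was 0.21, beside -0.01 over all features, and it was -0.20 without restricted replicate 3. The groups did not overlap for 3 of them, beside 18% of all features, and the third was Cx3cl1.

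The interferon-induced chemokines had their highest levels of the series in a single old freely fed animal, and none of them passed the test in any comparison. Sequence before Cxcl10 and Cxcl11 is shown because these genes carry letters linked to interferon signalling besides kB letters. In Cxcl10 the first run of capitals is the core of the interferon-stimulated response element, GAAA, any 2 bases and GAAA, and the other 2 runs are kB letters. In Cxcl11 the first run is a gamma-activated site, TTC, any 3 bases and GAA, and the second is kB. Of 33469 promoters, 3.41% held the first pattern and 7.67% the second, and of the 9 chemokines 1 held each.
Cxcl10, chr14:15988816-15988963, plus strand: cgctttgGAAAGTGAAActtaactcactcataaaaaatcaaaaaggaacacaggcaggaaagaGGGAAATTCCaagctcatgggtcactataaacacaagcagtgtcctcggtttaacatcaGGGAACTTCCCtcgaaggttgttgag
Cxcl11, chr14:15973478-15973678, plus strand: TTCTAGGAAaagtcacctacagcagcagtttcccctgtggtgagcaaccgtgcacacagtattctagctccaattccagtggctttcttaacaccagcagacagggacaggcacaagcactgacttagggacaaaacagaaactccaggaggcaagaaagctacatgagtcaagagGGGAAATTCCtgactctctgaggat

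An AP-1 pattern, TGA, any base and TCA, was present in the same window of 3 of the 9, Cxcl10, Cxcl11 and Cxcl14, beside 6.34% of promoters.

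Cxcl10 had levels of -3.07, -3.04, 0.05 and -3.04 in old restricted rats, against -1.54, 2.29, -2.38 and -2.31 in old freely fed rats and -3.64, -3.17, -2.90 and -2.26 in young rats. Old freely fed replicate 2 and restricted replicate 3 stood above all the rest. Its log2 change was 2 with age (95% interval -0.16 to 4.17, limma adjusted p = 0.236) and -1.29 with restriction (95% interval -3.45 to 0.88, limma adjusted p = 0.488). Without old freely fed replicate 2 these were 0.91 and -0.20, and with both animals left out 0.91 (limma adjusted p = 0.128) and -0.97 (limma adjusted p = 0.168). Restricted and young rats differed by 0.72 with all animals and by -0.06 without both.

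Cxcl9 had levels of -4.77, -4.58, -3.73 and -5.25 in old restricted rats, against -2.39, -0.59, -3.77 and -3.25 in old freely fed rats and -4.84, -4.29, -4.40 and -3.40 in young rats. The old groups overlapped only by restricted replicate 3 and old freely fed replicate 3. Cxcl9 differed by a log2 change of -2.08 with restriction (95% interval -3.37 to -0.79, limma adjusted p = 0.0763) and 1.74 with age (95% interval 0.45 to 3.03, limma adjusted p = 0.105). Without old freely fed replicate 2 the 2 values were -1.45 (limma adjusted p = 0.109) and 1.10 (limma adjusted p = 0.198), and without both animals -1.73 (limma adjusted p = 0.0628) and 1.10 (limma adjusted p = 0.141).

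Cxcl11, the ligand of Cxcr3 with the highest affinity, was well above background in 2 of 4 old restricted rats, 4 of 4 old freely fed rats and 0 of 4 young rats. Its levels were -8.51, -7.33, -5.72 and -9.42 in restricted rats, against -5.87, -3.09, -7.24 and -6.13 in old freely fed rats and -9.27, -7.35, -8.23 and -6.87 in young rats. Cxcl11 passed the filter on dim probes only through old freely fed rats. Over the alternatives its log2 change with age ran from 0.79 to 2.9, so the bound that follows holds only for this scaling. Since no young array measured it, the old freely fed mean was at least 2.67-fold higher than the young one (limma adjusted p = 0.151). It was at least 1.5-fold higher without old freely fed replicate 2 (limma adjusted p = 0.34). That bound sets the mean of the brighter group against a limit on each dim array, which is the dimmest probe that still counted as measured there, or the gene's own signal where that is higher. That dimmest level was -7.14 to -6.89 on young arrays, -8.40 to -7.81 on old freely fed arrays and -7.73 to -7.46 on restricted arrays, so young arrays had the higher limit of detection. With restriction the log2 change was -2.16 (95% interval -4.21 to -0.11, limma adjusted p = 0.221). It was -1.33 without old freely fed replicate 2 (limma adjusted p = 0.457), -2 without both animals that stand apart (limma adjusted p = 0.189) and -0.74 with normexp background correction.

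Genes of the type I interferon response were highest in the same 2 animals. The summed level of 14 such genes was 57.6, 54.3, 98.3 and 55.3 times the 75th percentile in the 4 restricted rats, against 58, 218, 53.6 and 56.3 in the old freely fed rats and 55.9, 56.1, 54.8 and 59 in the young rats. Ifi27 and Mx2 made up most of that sum, which says little about the dimmer genes. Their mean log2 levels were 5.23 and 4.08 in restricted rats, 5.32 and 4.34 in old freely fed rats and 5.19 and 3.84 in young rats. The summed level of 15 interferon gamma response genes was 17.4 to 25.4, 20.1 to 46.8 and 17.1 to 18.4 in the same order, and old freely fed replicates 1, 3 and 4 lay at 21.9, 20.1 and 20.5. Of 13 genes of each list tested, 0 were called by limma in any comparison. At an unadjusted p under 0.05 there were 0 type I genes in each comparison, and 7 interferon gamma genes with restriction, 7 with age and 3 between restricted and young rats. With age 13 of 13 type I genes and 12 of 13 interferon gamma genes had a positive change, with median log2 changes of 1.47 and 0.47, beside -0.05 over all features. Without old freely fed replicate 2 the medians were 0.28 and 0.25, with 12 of 13 positive in each list. With restriction the medians were -0.58 and -0.41 with all animals, 0.35 and -0.16 without that animal, and -0.16 and -0.18 without both that stand apart.

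**Figure D3:**
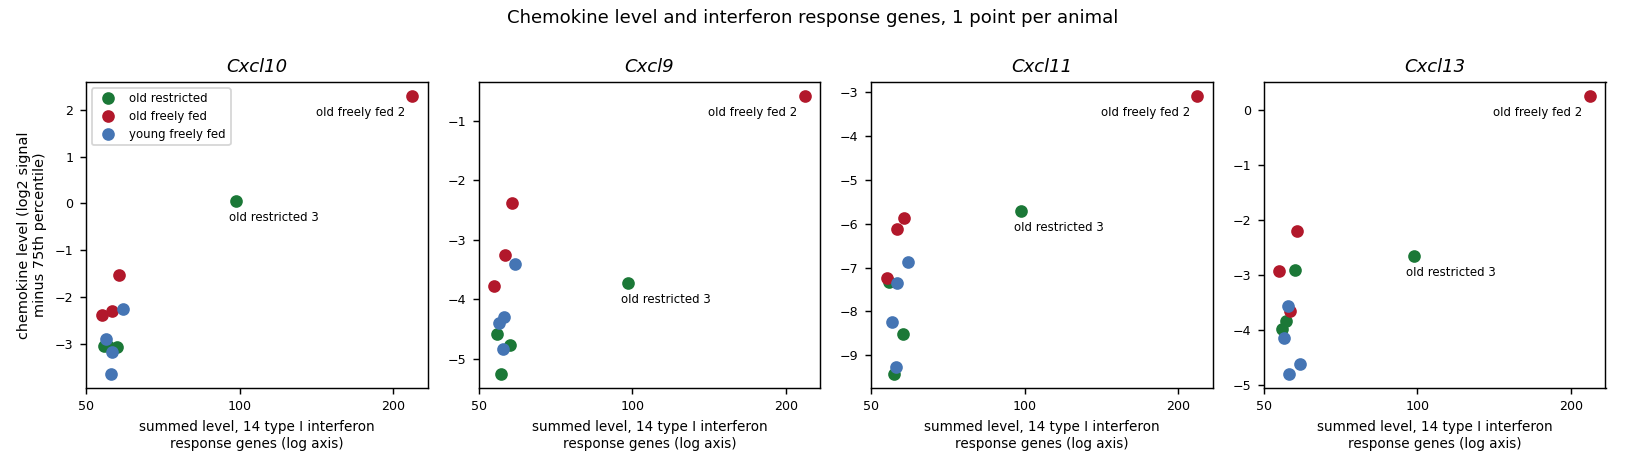
Level of Cxcl10, Cxcl9, Cxcl11 and Cxcl13 (vertical axes, log2 signal above the 75th percentile) against the summed level of 14 type I interferon response genes (horizontal log axis, multiples of the 75th percentile), 1 point per animal, coloured by group. Old freely fed replicate 2, at 218, is highest in all 4 panels, restricted replicate 3, at 98.3, is next highest for Cxcl10 and Cxcl11, and the other 10 animals lie between 53.6 and 59 on the horizontal axis. Ifi27 and Mx2 make up most of the sum, so differences in the dimmer genes hardly show on it.

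Within the other 10 animals the 3 ligands of Cxcr3 still moved together: r was 0.92 between Cxcl9 and Cxcl10, 0.92 between Cxcl9 and Cxcl11 and 0.82 between Cxcl10 and Cxcl11 (Pearson, n = 10, across both diets and ages, as a description). Over all 12 animals the values were 0.86, 0.94 and 0.90. Cxcl11 was well above background in 0 of 4 young rats and was not in restricted replicates 1 and 4. The r values with Cxcl11 thus rest largely on levels below that limit.

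Cxcr3, the receptor of these 3 ligands, was higher in old rats. Its levels were -4.03, -4.27, -3.85 and -4.46 in old restricted rats and -3.51, -3.56, -3.71 and -3.55 in old freely fed rats, against -5.18, -4.77, -4.76 and -4.57 in young rats. Restricted rats lay between the other groups, and none of the 3 groups overlapped. With age the log2 change was 1.24 ± 0.14 (SE; limma adjusted p = 0.00493), and it was called in all 24 alternatives tried. Restricted rats differed from young rats by 0.67 ± 0.14 (limma adjusted p = 0.0194), a call lost without restricted replicate 3 (limma adjusted p = 0.0545) and with both animals that stand apart left out (limma adjusted p = 0.0579). They differed from old freely fed rats by -0.57 ± 0.14 (limma adjusted p = 0.0526), just outside the threshold, and by -0.45 with normexp background correction (limma adjusted p = 0.0451). Old freely fed replicate 2, the animal with the highest levels of Cxcl9, Cxcl10 and Cxcl11, did not stand out in Cxcr3.

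Cxcr6, the receptor of Cxcl16 on effector T and NK T cells, lay at -5.60 to -4.85 in old restricted rats and had levels of -3.86, -4.74, -4.51 and -4.30 in old freely fed rats, against -6.38, -5.70, -5.47 and -7.34 in young rats. Old freely fed and young rats did not overlap, and the lowest young value was not well above background. The log2 change with age was 1.87 ± 0.36 (SE; limma adjusted p = 0.025), and the call was lost without young replicate 1 (limma adjusted p = 0.0644) and with only the 2 groups in the fit (limma adjusted p = 0.0742). With normexp background correction the change was 1, and 1.07 with quantile scaling as well. Its ligand Cxcl16 averaged 2.45 ± 0.13 in old freely fed rats and 2.20 ± 0.06 in young rats (SD, n = 4 each), with a log2 change of 0.25 (limma adjusted p = 0.0507).

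**Figure D4:**
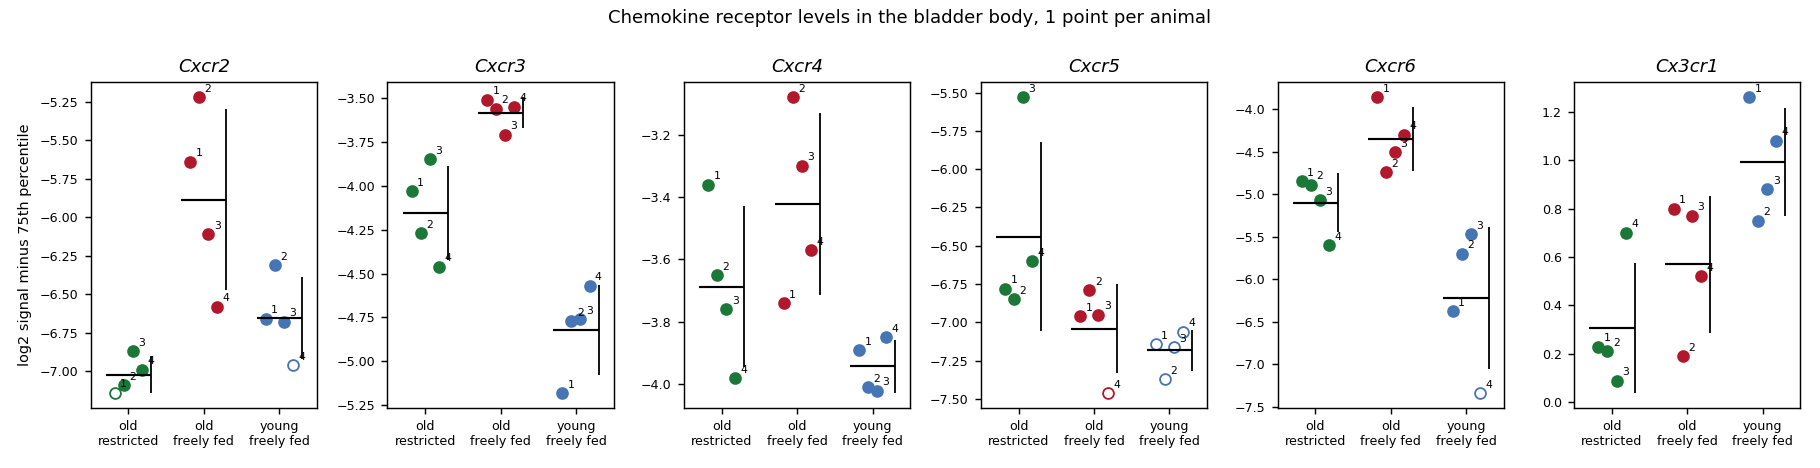
Level of 6 chemokine receptors (vertical axis, log2 signal above the 75th percentile, scaled separately in each panel) in old restricted, old freely fed and young freely fed rats, 1 numbered point per animal, with the group mean (horizontal line) and SD (vertical line, n = 4). Open points are not well above background. The Cxcr3 levels of the 3 groups do not overlap, and Cxcr2 in restricted rats lies near background at -7.14 to -6.87.

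Among T and NK cell markers, 7 of 16 rose with age, with a median log2 change of 1.12 beside -0.05 over all features. Without old freely fed replicate 2, 11 of 16 rose, with a median of 0.95. They included the surface proteins Cd7 (log2 change 1.02, limma adjusted p = 0.00283), Cd2 (1.21, limma adjusted p = 0.00687) and the T cell receptor chain Cd3d (0.88, limma adjusted p = 0.011), each called in 12 of 12 fits that left out an animal. The other 4 were Cd5, Cd8b, Lck and Klrd1, whose calls were kept in 7, 6, 5 and 3 of those fits. With restriction 2 of 16 fell, Cd7 by 1.01 (limma adjusted p = 0.0019) and Cd3d by 0.71 (limma adjusted p = 0.0156), in 12 and 10 of 12 such fits, and 5 of 16 fell without old freely fed replicate 2. The summed level of 17 such markers was 1.92 to 2.62 in restricted rats, 3.11 to 11.5 in old freely fed rats (3.38 at most without replicate 2) and 1.74 to 2.13 in young rats. Lymphocyte transcripts thus moved with Cxcr3 and Cxcr6, and their part in the receptor results was not tested.

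Cxcl13, which organises B cell follicles, had levels of -2.90, -3.98, -2.65 and -3.84 in old restricted rats and -2.20, 0.26, -2.93 and -3.65 in old freely fed rats, against -3.56, -4.79, -4.14 and -4.61 in young rats. The old freely fed and young groups overlapped by 1 animal each. The log2 change with age was 2.15 (95% interval 0.65 to 3.64, limma adjusted p = 0.0896), and it was 1.35 without old freely fed replicate 2 (limma adjusted p = 0.135). With restriction it was -1.21 (95% interval -2.70 to 0.28, limma adjusted p = 0.34), and -0.42 without that animal.

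Cxcr5, the receptor of Cxcl13, was well above background in 4 of 4 restricted rats, 3 of 4 old freely fed rats and 0 of 4 young rats, and averaged -6.44 ± 0.61, -7.04 ± 0.29 and -7.18 ± 0.13 (SD, n = 4 each). It passed the test in none of the 3 comparisons. Of 6 B cell markers tested, 3 rose with age, among them the transcription factor Spib, at least 2.83-fold higher (limma adjusted p = 0.0321), and Cd72, at least 1.8-fold higher (limma adjusted p = 0.0476). Both were well above background on 0 of 4 young arrays, hence the bounds. Both also passed the filter on dim probes only through old freely fed rats, so their direction with age, and the count of 3, partly follow from it. Over the alternatives their log2 changes with age were as low as 0.64 and 0.21, so the bounds hold only for this scaling. Leaving out 1 animal ended the calls of Spib and Cd72 in 6 and 12 of 12 fits. Without old freely fed replicate 2, 0 of the 6 were called. Pax5, the transcription factor of B cell identity, fell by 0.56 between restricted and young rats (limma adjusted p = 0.0308), a call kept in 9 of 12 such fits. Between 2 and 7 of the 10 B cell markers measured were well above background on restricted arrays, 7 or 8 on old freely fed arrays and 1 on young arrays. Their summed level was 0.41 to 0.474, 0.473 to 0.627 and 0.541 to 0.748 in the same order, and Pax5, with mean log2 levels of -1.41, -1.16 and -0.85, made up most of it. Among 7 genes that organise lymphoid tissue, 5 had a positive change with age, with a median log2 change of 0.03. The only one called with age was Ltbr, which fell by 0.16 (limma adjusted p = 0.0435, kept in 2 of 12 fits that left out an animal). With restriction 0 were called and 4 had an unadjusted p under 0.05, with a median of -0.33 and 1 of the 7 positive. Between restricted and young rats 3 fell. Those 3 were Il7, a survival factor of lymphocytes, which fell by 0.58, the lymphotoxin gene Lta, which fell by 0.46, and its receptor Ltbr, which fell by 0.13 (limma adjusted p = 0.0335, 0.0426 and 0.0487); these calls were kept in 6, 3 and 1 of 12 such fits.

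Cxcl12, the stromal chemokine that retains leukocytes and stem cells, had levels of 2.06, 2.03, 2.54 and 1.93 in old restricted rats, against 2.52, 2.57, 2.16 and 2.18 in old freely fed rats and 1.94, 1.80, 1.90 and 1.97 in young rats. Old freely fed rats were above all young rats, and Cxcl12 and Pf4 were the 2 chemokines whose groups did not overlap with age, beside 15.1% of all features. The log2 change with age was 0.45 (95% interval 0.17 to 0.74, limma adjusted p = 0.0683), and 0.38 without both animals that stand apart (limma adjusted p = 0.0481). With restriction it was -0.22 (limma adjusted p = 0.361).

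The second Cxcl12 probe lay at -0.52 to -0.18 in restricted rats, -0.22 to 0.43 in old freely fed rats and -0.49 to -0.20 in young rats. Its log2 changes were 0.31 with age (limma adjusted p = 0.172), -0.39 with restriction (limma adjusted p = 0.134) and -0.08 between restricted and young rats (limma adjusted p = 0.761). The probes differed in direction in the last of these, where the first gave 0.24 (limma adjusted p = 0.274). Cxcr4, the signalling receptor of Cxcl12, averaged -3.69 ± 0.26 in restricted rats, -3.42 ± 0.29 in old freely fed rats and -3.94 ± 0.09 in young rats (SD, n = 4 each), and its log2 change with age was 0.52 (limma adjusted p = 0.0696). Ackr3, the scavenging receptor, averaged -0.26 ± 0.19, -0.07 ± 0.25 and -0.19 ± 0.41 in the same order and passed no test.

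Cx3cl1, the membrane-tethered fractalkine, had levels of 2.30, 2.08, 2.20 and 2.19 in old restricted rats, against 2.12, 2.97, 2.16 and 1.99 in old freely fed rats and 1.87, 1.76, 1.79 and 2.02 in young rats. All restricted rats lay above all young ones, by 0.06 between the nearest animals. The log2 change was 0.33 (95% interval -0.04 to 0.70, limma adjusted p = 0.243), and it was 0.33 with a limma adjusted p of 0.0147 once old freely fed replicate 2, which is in neither group, was left out of the fit and no longer entered the estimate of spread. With age it was 0.45 (limma adjusted p = 0.135), and 0.23 without that animal. Its receptor Cx3cr1, found on monocytes and macrophages, had levels of 0.23, 0.21, 0.09 and 0.70 in restricted rats and lay at 0.19 to 0.80 in old freely fed rats, against 1.26, 0.75, 0.88 and 1.08 in young rats. Restricted rats lay below all young rats. Their log2 change from young rats was -0.68 ± 0.16 (SE; limma adjusted p = 0.0265), lost without young replicate 1 or 4 or restricted replicate 1, 2 or 3.

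Of the genes that cleave, bind or release chemokines, 6 were tested. Hpse, the heparanase that cuts the heparan sulphate chemokines bind to, rose with age by a log2 change of 0.88 (limma adjusted p = 0.0195) and differed by 0.60 between restricted and young rats (limma adjusted p = 0.037). The first call was kept in 11 of 12 fits that left out an animal and the second in 3 of 12. Sdc4, a heparan sulphate proteoglycan, rose by 0.22 with restriction (limma adjusted p = 0.0201) and by 0.16 against young rats (limma adjusted p = 0.0432), calls kept in 10 and 3 of 12 such fits. The other 4 passed no test.

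With age, 8 of the 10 chemokines had a positive log2 change, with a median of 0.63 beside -0.05 over all features, while 1 was called. At an unadjusted p under 0.05, 7 of the 10 were past the threshold, beside 24.6% of all features. Cxcl11 is among the 8 and among the 7. It passed the filter on dim probes only through old freely fed rats, so its direction with age partly follows from that filter. Without old freely fed replicate 2 the median was 0.56, with 9 of the 10 positive and 0 called.

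The 12 animals gave different neighbours to each chemokine. The genes most like Cxcl2 in level over the 12 arrays were C2cd3, Cldn22 and Smim5 (Pearson r 0.94, 0.93 and 0.91), and those most like Cxcl1 were Apod, Wnt9b and Kcnk13 (0.96, 0.96 and 0.91). For Pf4 they were Tmem150c, Dusp6 and Il7r (0.93, 0.93 and 0.92), and for Cxcl14 they were Wdr93, Rpn1 and Cldn11 (0.94, 0.90 and 0.90). Cxcl10 was most like Tmem106a, Dhx58 and Ifi44 (0.99, 0.98 and 0.98), and without the 2 arrays farthest from its median these were 0.91, 0.85 and 0.87. For Cxcl9 they were Il17ra, Myo1g and Fmnl1 (0.98, 0.98 and 0.97), for Cxcl11 Ticam2, Cxcl9 and Arsb (0.95, 0.94 and 0.94), for Cxcl13 Mov10, Clec4a2 and Il18 (0.96, 0.95 and 0.95), for Cxcl12 Nxpe4 and Gpr149 (0.94 and 0.92) besides 1 uncharacterised locus, and for Cx3cl1 Slc11a1 and Vps54 (0.96 and 0.96) besides 1 unnamed transcript. These were picked as the highest among the 12036 features with a symbol, all on the same arrays, and are a description. Among the chemokines themselves, Cxcl2 ran opposite to Cxcl14 (r = -0.85 over 12 animals and -0.83 without the 2 that stand apart), and Pf4 ran with Cxcl1 (0.84 and 0.85). These r values were taken across both diets and ages, so they also carry the group differences given above.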

How the data were processed

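Total RNA was labelled with Cy3 and hybridised to 1-colour Agilent rat arrays, per the labels' protocols. The deposited intensities were made by the authors with Agilent Feature Extraction 10.7, per the submitters' processing notes and the file headers, and no scaling between arrays was found in them. A series-wide table held identical values in 100% of spots (relative tolerance 1e-06) and was set aside.

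Processed intensities were put on the log2 scale and centred at the 75th percentile, which lay between 3993 and 4837 units. Spots marked as outliers were left out and the rest averaged per probe. A probe was kept if any group had it well above background on its 4 arrays (23089 probes), and the brightest probe represented a gene, leaving 20425 features. Names came from RefSeq accessions matched to GRCr8, for 17998 probes (59.3%). The number of arrays limits the precision, and for dim probes the background does too. Linear models with a brightness trend were fitted to all 12 arrays (R 4.3, limma 3.58; two-sided, Benjamini-Hochberg), and the steps were tested on simulated data. A gene list is described by its counts and its median change, and a summed level adds the linear levels of a list's genes. Summed levels mix probes of unequal brightness. Groups came from the labels, and p-values measure the spread between rats. Members, lists and tests were chosen with earlier results of these data known. Named genes were the 10 chemokines, the measured receptors, up to 4 called genes of each list and the 3 closest correlates of each chemokine; some list genes taken by this rule are left to counts, and 1 is not reported here. Replicate numbers do not pair animals (correlation of same-numbered deviations -0.19 to 0.10 over 12 pairs). The alternative with normexp (offset 50) used the median signal, as the mean signal is not used here.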

Additional observations from a re-analysis of the deposited data

Results flagged for a closer look

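Cxcl10 in old restricted replicate 3, at 0.05, lay far above the other 3 restricted rats, at -3.07 to -3.04. The gap was 0.99 of the range of the group; this exceeds the critical value of Dixon's test. Of 33 groups tested, chance would mark about 1 in 20. The same animal had the highest summed level of type I interferon response genes in its group, 98.3 against 54.3 to 57.6.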

How the results depend on the processing

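Over 24 alternatives, the calls of Pf4 with restriction and Cxcl2 between restricted and young rats were kept in all 24, those of Cxcl1 and Cxcl2 with restriction in 23 and 20, that of Pf4 with age in 12, and those of Cxcl14 in 7 with restriction and 13 against young rats. The number of chemokines called with age (1 as reported) was 2 without the filter on dim probes, 0 without the brightness trend, 0 with only the 2 groups compared and 2 with both animals that stand apart left out, an alternative added after seeing the data. With restriction (4 as reported) it was 2 with only the 2 groups and 2 without both animals, and between restricted and young rats (2 as reported) 1 without the brightness trend. Leaving out 1 animal gave 0 to 2, 2 to 4 and 1 to 3. With the replicate number as a block the counts were 0, 2 and 2; the numbers do not pair animals. Over all features the calls with age were 3568 without the filter, 440 without the trend and 94 with only the 2 groups, against 760, and with restriction 498 with the block and 478 with only the 2 groups, against 744.

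Uncalled changes that turned sign were Cxcl14 with age (0.07 with quantile scaling, 0.08 with normexp and quantile scaling, -0.14 to 0.04 leaving out 1 animal), Cxcl12 between restricted and young rats (-0.08 on its other probe), Cxcl2 with age (0.10 without both animals, -0.78 to 0.10 leaving out 1 animal), Cx3cl1 with restriction (0.10 without both, -0.22 to 0.10 leaving out 1 animal), and, between restricted and young rats, Cxcl10 (-0.06 without both, -0.06 to 0.98 leaving out 1 animal) and Cxcl11 (-0.49 without both, -0.49 to 0.74 leaving out 1 animal). The causes were not tested. No slide block could be fitted, as each group lies on 1 slide. Levels near background, as of Cxcl11, Cxcr2 and Cxcr5, are limited by signal.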

Other observations

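In 2 chemokines outside the 10, old freely fed replicate 2 also stood apart. Cxcl17, a mucosal chemokine, was well above background in 2 of the 12 animals, restricted replicate 3 at -7.10 and old freely fed replicate 2 at -3.75, and lay between -9.90 and -8.47 in the other 10. Xcl1, a C chemokine of NK and CD8 T cells, was -4.41 to -3.54 in restricted rats and -3.95 to -3.85 in young rats, and in old freely fed rats it was -2.00 in replicate 2 and -4.17 to -3.83 in the other 3. A second Xcl1 probe had -2.72 in that animal and -5.46 to -4.75 in the other 3.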
